A study of Mus musculus with 6 samples.

Results

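The genes described here are the co-receptors, adaptors and IRAK kinases through which Toll-like receptors (TLRs) signal. They were chosen by symbol and number 10 of the 26096 genes in the deposited table: the co-receptor genes Cd14 and Ly96, the adaptor genes Myd88, Tirap, Ticam1 and Ticam2, and the kinase genes Irak1, Irak2, Irak3 and Irak4. All 10 had enough reads to be tested. RNA was sequenced from mouse microglia, the macrophages that reside in the brain, in 6 libraries. In 3 of them (FeM CM) the cells had been given medium conditioned by ferroptotic bone marrow-derived macrophages (BMDMs), and in the other 3 (C CM) medium conditioned by normal BMDMs. Both groups are WT by genotype and share the medium transfer itself, so that C CM is a conditioned-medium control and not an untreated one. Ferroptosis is an iron-dependent cell death driven by lipid peroxidation. The agent that induced it, the length of exposure, and the origin, strain and age of the cells were not given in the sources used here.

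TLRs are membrane receptors for microbial molecules and for molecules released by damaged cells. CD14 hands lipopolysaccharide to MD-2, the product of Ly96, which sits on TLR4. The activated receptor then recruits adaptors by a shared fold, the TIR domain. TIRAP brings MYD88 to the receptor, and MYD88 assembles IRAK4 with IRAK1 and IRAK2, a kinase complex that leads through TRAF6 to NF-kB and cytokine genes. TRAM, encoded by Ticam2, instead brings TRIF, encoded by Ticam1, which leads through TBK1 and IRF3 to interferon-beta and its target genes. IRAK3, also called IRAK-M, lacks the usual kinase activity and is known in macrophages as a brake on this pathway.

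With FeM CM, 4 of the 10 genes were higher, 1 was lower and 5 did not pass the test. Those that rose were the co-receptor gene Cd14, the TRIF gene Ticam1 and the kinase genes Irak2 and Irak3, and the one that fell was Myd88. Irak3 had the largest change of the 10, 2.15-fold (95% interval 1.71 to 2.69). Ly96, Tirap, Ticam2, Irak1 and Irak4 did not pass. The test was limma on the deposited log2 values over 15597 genes, with a Benjamini-Hochberg adjusted p of 0.05 as threshold. Over all the genes tested, 42.5% passed, 19.7% higher and 22.8% lower, so that the 5 passing genes are to be read against a change in a large share of the genes. The median log2 fold change of the 10 was 0.27, beside -0.01 over all tested genes. All fold changes are FeM CM over C CM, on the log2(normalized count + 1) scale.

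**Figure D1:**
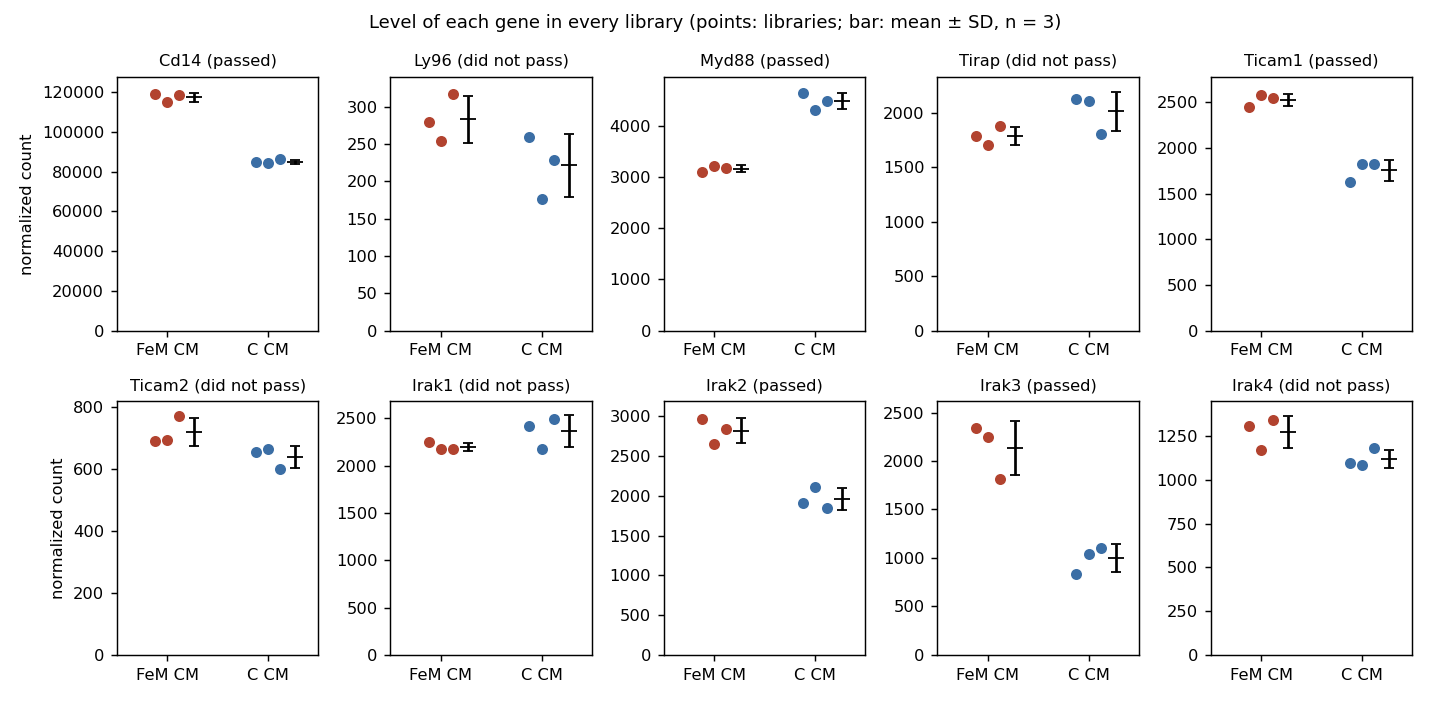
Normalized counts (vertical axes, each starting at 0) of the 10 genes in the 3 FeM CM libraries (red, left) and the 3 C CM libraries (blue, right), with the mean and SD as bars. Cd14, Ticam1, Irak2 and Irak3 lay higher in all 3 FeM CM libraries than in any C CM library and Myd88 lay lower. Ly96, Tirap, Irak1 and Irak4 overlapped between the groups, and Ticam2 did not overlap but did not pass.

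The libraries held between 39624311 and 41953603 reads in the FeM CM group and between 43419446 and 50557794 reads in the C CM group, as recovered from the deposited values. They grouped by medium, with a correlation of log2 values across genes of at least 0.980 within a group and of 0.962 to 0.967 between the groups. The labels do not say whether the samples were separate cultures, and p-values therefore reflect only the spread among these samples, which may be technical. Of the defining microglia markers, Tmem119 had 21 reads in all and P2ry12, a purinergic receptor gene, had 3, with 0 in 5 of the 6 libraries, while Csf1r, which other macrophages also express, was abundant. Of 4 microglia markers tested, 0 were higher and 2 were lower (Csf1r and Trem2), and the summed level of the list was 59332 to 60898 normalized counts in FeM CM libraries and 77911 to 81270.3 in C CM libraries. Of 5 macrophage and monocyte markers tested, Adgre1 and Lyz2 were higher and Cd68 was lower, with sums of 259600 to 267857 with FeM CM and 240692 to 252739 with C CM. Of the neutrophil markers only S100a8 was tested and was higher (143.5 against 13.2 normalized counts), with Mpo at 7 and Elane at 3 reads over the 6 libraries. Of the other lists, summed levels were higher with FeM CM for endothelial cells (388 to 405 with FeM CM and 309 to 337 with C CM; 1 of 3 tested genes higher, Pecam1), astrocytes (1152 to 1214 with FeM CM and 880.1 to 977 with C CM; Gja1 higher and Aldh1l1 lower of 3), neurons (55.3 to 69.6 with FeM CM and 5.88 to 16.6 with C CM; Tubb3 higher of 1) and fibroblasts (26.6 to 60.9 with FeM CM and 6.85 to 11.8 with C CM; Dcn higher of 1). Those of oligodendrocytes were lower, at 4174 to 4374 with FeM CM and 6561 to 7011 with C CM (Mag higher and Mbp lower of 3). The sums for microglia, macrophages, oligodendrocytes and astrocytes came mostly from the most abundant gene of each list. Means with FeM CM and C CM were 58594 and 76237 for Csf1r, and 229156 and 207348 for Lyz2. For Mbp they were 4101 and 6608, and for Gja1 1084 and 769. A shift of such a sum is therefore mainly the change of that gene. The part of these marker shifts in the results below was not tested. In bulk RNA, fewer cells of a type and less RNA per cell cannot be told apart.

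The promoter windows below are shown because the 10 genes include some that rose, one that fell and some that did not pass, and the pathway ends in NF-kB and in interferon genes. Each is the 250 bases before a RefSeq transcription start in GRCm38.p6, written 5′ to 3′ on the gene's own strand, and windows were used for 7 of the 10 genes. Capitals mark a match to the interferon-stimulated response element GAAANNGAAA in Myd88 and to the NF-kB consensus in Irak1, each searched on both strands. The windows of Ticam1, Irak2 and Irak3, genes that rose, are printed for comparison and hold neither. The windows lie on the minus strand at chr9:119340019-119340268 for Myd88, chrX:74023919-74024168 for Irak1, chr17:56276768-56277017 for Ticam1 and chr10:120202131-120202380 for Irak3, and on the plus strand at chr6:113638217-113638466 for Irak2.
Myd88: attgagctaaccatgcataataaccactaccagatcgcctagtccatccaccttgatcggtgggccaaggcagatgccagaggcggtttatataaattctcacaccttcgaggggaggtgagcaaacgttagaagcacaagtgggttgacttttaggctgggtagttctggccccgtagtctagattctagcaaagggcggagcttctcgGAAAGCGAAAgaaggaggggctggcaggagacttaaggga
Irak1: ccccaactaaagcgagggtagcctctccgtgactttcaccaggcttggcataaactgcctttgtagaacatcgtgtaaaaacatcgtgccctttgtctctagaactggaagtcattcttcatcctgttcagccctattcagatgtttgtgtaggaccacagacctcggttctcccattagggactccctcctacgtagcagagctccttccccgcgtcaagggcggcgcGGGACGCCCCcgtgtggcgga
Ticam1: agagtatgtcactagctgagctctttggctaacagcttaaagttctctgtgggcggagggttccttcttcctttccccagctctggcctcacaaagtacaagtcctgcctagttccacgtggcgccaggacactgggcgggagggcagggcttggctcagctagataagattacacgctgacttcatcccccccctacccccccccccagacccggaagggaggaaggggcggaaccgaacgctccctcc
Irak2: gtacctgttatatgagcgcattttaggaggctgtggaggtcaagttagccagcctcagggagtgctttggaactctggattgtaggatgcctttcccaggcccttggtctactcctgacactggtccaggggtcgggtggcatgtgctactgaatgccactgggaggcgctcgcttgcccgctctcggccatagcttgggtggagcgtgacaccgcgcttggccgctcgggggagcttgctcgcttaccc
Irak3: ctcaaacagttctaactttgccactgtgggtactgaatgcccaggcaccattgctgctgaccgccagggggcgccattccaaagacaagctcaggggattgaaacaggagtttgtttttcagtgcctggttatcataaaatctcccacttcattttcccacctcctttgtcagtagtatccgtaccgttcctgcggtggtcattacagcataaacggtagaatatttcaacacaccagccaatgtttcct

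In the Myd88 window the element lay at -40 to -31 from the start, with the letters GAAAGCGAAA on the gene's strand. In the GENCODE model the gene begins further upstream, at 119341411, so that this window lies within the gene model. The NF-kB match of Irak1 lay at -21 to -12 and reads GGGACGCCCC, which matches the consensus on both strands. Among all 32851 RefSeq windows of this length, 2.98% held the interferon element and 7.25% the NF-kB consensus, and no window used here held both. Of the genes whose windows were used, the 3 that rose (Ticam1, Irak2 and Irak3) held neither motif, and neither did Tirap and Irak4. No window of Cd14, which also rose, or of Ly96 and Ticam2 was used here, so the motifs of the rising genes are only partly covered. A match is a run of letters and not a measured binding site.

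The co-receptor gene Cd14 had the highest level of the 10 by a wide margin. Cd14 (ENSMUSG00000051439, GRCm38 chromosome 18, 36725067 to 36726798, minus strand), which encodes the surface protein that binds lipopolysaccharide, had 118887, 114811 and 118515 normalized counts in FeM CM libraries, against 84567.6, 84289 and 86070.1 in C CM libraries. All 3 FeM CM libraries lay well above all 3 C CM libraries. The means were 117404 ± 2253 with FeM CM and 84976 ± 958 with C CM (SD, n = 3 each), 0.47 higher on the log2 scale (SE 0.02; limma adjusted p = 7.80e-07), or 1.38-fold. Of the genes tested, 32.6% changed by more in either direction. With quantile normalization it was 0.29 and still passed.

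Ly96 (ENSMUSG00000025779, chromosome 1, 16688051 to 16709611, plus strand) encodes MD-2, which holds the lipid part of lipopolysaccharide against TLR4. It had 279.7, 254 and 317 normalized counts in FeM CM libraries and 259.5, 177 and 229 in C CM libraries. The highest C CM library lay above the lowest FeM CM library, so the groups overlapped. Ly96 averaged 283 ± 31.7 with FeM CM and 222 ± 41.9 with C CM, a difference of 0.36 on the log2 scale (SE 0.16; 95% interval -0.01 to 0.73; limma adjusted p = 0.105). The interval holds values as large as the change of Cd14, and Ly96 rested on 1506 reads over the 6 libraries, against 605512 for Cd14. Within a library, the log2 difference of Cd14 minus Ly96 averaged 8.70 with FeM CM and 8.59 with C CM, and the groups overlapped (exact two-sided permutation p = 0.7).

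The receptor on which both act, Tlr4, is not one of the 10 and was looked up after its values were seen. It had 444.5, 3025 and 3164 normalized counts in FeM CM libraries and 403, 329.7 and 645 in C CM libraries. FeM CM replicate 1 thus lay among the C CM libraries and the other 2 FeM CM libraries lay far above them. Its log2 fold change was 1.88 (SE 0.94; limma adjusted p = 0.193), and without FeM CM replicate 1 it was 2.81 (SE 0.32; limma adjusted p = 0.00439), so that 1 library decided the call. Neither Cd14 nor Ly96 had such a gap between the libraries of a group.

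The adaptor genes moved in opposite directions. Myd88 (ENSMUSG00000032508, chromosome 9, 119335934 to 119341411, minus strand), the adaptor of all TLRs except TLR3 and of the interleukin-1 receptors, had 3092, 3220.0 and 3168 normalized counts in FeM CM libraries, against 4630.4, 4313 and 4489 in C CM libraries. Every FeM CM library lay far below every C CM library. Myd88 averaged 3160.0 ± 64.2 with FeM CM and 4477 ± 159 with C CM, and its log2 fold change was -0.50 (SE 0.04; limma adjusted p = 2.32e-05), or 0.706 of the C CM level. Its exons overlap those of Acaa1a, a peroxisomal thiolase gene on the opposite strand, over 290 bases, 11.3% of the Myd88 exon bases. Acaa1a was lower too, by less, with 2998, 2876 and 2747 normalized counts with FeM CM and 3089, 3253 and 3712 with C CM (log2 fold change -0.22; limma adjusted p = 0.0356). Since the use of strand in counting was not given in the sources used here, reads of the shared bases cannot be told apart.

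Ticam1 (ENSMUSG00000047123, chromosome 17, 56269319 to 56276786, minus strand) encodes TRIF, the adaptor of TLR3 and of TLR4 inside the cell. Its level was 2448, 2581 and 2553 normalized counts in FeM CM libraries and 1626, 1821 and 1831 in C CM libraries. The groups were well apart, with the lowest FeM CM library above the highest C CM library. Ticam1 averaged 2527 ± 70.0 with FeM CM and 1759 ± 116 with C CM, 0.52 higher on the log2 scale (SE 0.06; limma adjusted p = 0.000145), close in size to the change of Myd88 and opposite in sign. It shared no exon base with another gene model.

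Of the bridging adaptors, neither passed. Tirap (ENSMUSG00000032041, chromosome 9, 35184551 to 35200291, minus strand), which anchors MYD88 at the membrane, had 1784, 1709 and 1877 normalized counts with FeM CM and 2129, 2108 and 1808 with C CM. C CM replicate 3 lay within the FeM CM range, and the log2 fold change was -0.17 (SE 0.07; limma adjusted p = 0.105). Without that library it was -0.24 (limma adjusted p = 0.0194), so the call rests on C CM replicate 3. Tirap shares 446 exon bases (9.05%) with AC140448.1 and 39 with Srpr, both on the opposite strand, and neither passed (limma adjusted p = 0.402 for AC140448.1 and 0.464 for Srpr). Ticam2 (ENSMUSG00000056130, chromosome 18, 46557291 to 46574533, minus strand), which encodes TRAM, had 692, 693 and 771 normalized counts with FeM CM and 655, 666 and 600.1 with C CM. Its groups did not overlap, but the gap was small beside the spread, and the log2 difference of 0.17 (SE 0.08; limma adjusted p = 0.142) did not pass. It shares 838 exon bases, 14.5% of its own, with Tmed7, a secretory pathway gene on the same strand with a log2 fold change of -0.01 (limma adjusted p = 0.884), and reads from those bases cannot be told apart.

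The kinase genes showed the widest range. Irak3 (ENSMUSG00000020227, chromosome 10, 120141648 to 120202130, minus strand), the brake among the IRAKs, had 2337, 2245 and 1819 normalized counts in FeM CM libraries and 831, 1045 and 1107 in C CM libraries. The lowest FeM CM library lay far above the highest C CM library, although the libraries of each group spread more than for most of the other genes. Irak3 averaged 2134 ± 277 with FeM CM and 995 ± 145 with C CM, 1.10 higher on the log2 scale (SE 0.14; limma adjusted p = 0.000586), and 8.73% of the genes tested changed by more. It was the one gene of the 10 in the authors' deposited table of changed genes, which holds 1699 genes with a log2 fold change of at least 1.00 in size. There its FPKM values were 13.1, 12.6 and 10.04 with FeM CM and 4.72, 5.93 and 6.23 with C CM. Irak3 shares 192 exon bases (5.22%) with Tmbim4, a Golgi gene on the opposite strand that was higher by 0.35 on the log2 scale (limma adjusted p = 0.0171), a smaller change than that of Irak3.

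Irak2 (ENSMUSG00000060477, chromosome 6, 113638467 to 113695026, plus strand), a kinase known to sustain late cytokine responses in mouse macrophages, had 2966, 2656 and 2838 normalized counts with FeM CM, against 1909.8, 2114 and 1846 with C CM. No library of one group reached the range of the other. The log2 fold change was 0.53 (SE 0.07; limma adjusted p = 0.000249), with means of 2819.8 ± 155 with FeM CM and 1957 ± 140.0 with C CM. Irak2 shares 196 exon bases (4.44%) with Gm43963 on the opposite strand, which had 49.5 normalized counts on average with FeM CM and 38.7 with C CM and did not pass (limma adjusted p = 0.662).

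Irak1 (ENSMUSG00000031392, chromosome X, 74013914 to 74023918, minus strand), which acts with IRAK2 below IRAK4, had 2246, 2174 and 2177 normalized counts with FeM CM and 2418, 2171 and 2496 with C CM. The groups overlapped, since C CM replicate 2 lay below all FeM CM libraries, and the log2 fold change of -0.10 (SE 0.06; 95% interval -0.24 to 0.04; limma adjusted p = 0.223) did not pass. Irak4 (ENSMUSG00000059883, chromosome 15, 94543643 to 94581815, plus strand), the kinase that starts the cascade, had 1308, 1169.5 and 1343 normalized counts with FeM CM and 1096, 1085 and 1183 with C CM. FeM CM replicate 2 lay below C CM replicate 3, and the log2 fold change was 0.18 (SE 0.07; limma adjusted p = 0.0784). Without FeM CM replicate 2 it was 0.24 (limma adjusted p = 0.0330), so that this library decided the call. The interval for Irak1 holds no rise of the size measured for Irak2. Irak1 shares 71 exon bases with the microRNA gene Mir5132 on the same strand, which had 6 reads over the 6 libraries and was not tested. Irak4 shares 395 exon bases (7.87%) with Twf1, an actin regulator on the opposite strand that was higher by 0.23 (limma adjusted p = 0.00997), and reads from those bases cannot be told apart.

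In the authors' deposited table, whose false discovery rates come from the authors' own test, the same 5 of the 10 genes had a rate under 0.05. The values there were 5.50e-69 for Cd14, 6.11e-26 for Myd88, 5.83e-16 for Ticam1, 2.44e-14 for Irak2 and 6.03e-23 for Irak3. Counting by range instead of by test, 6 of the 10 had groups that did not overlap (5 higher and 1 lower), beside 53.7% of all tested genes, of which 25.6% were higher and 28.2% lower.

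**Figure D2:**
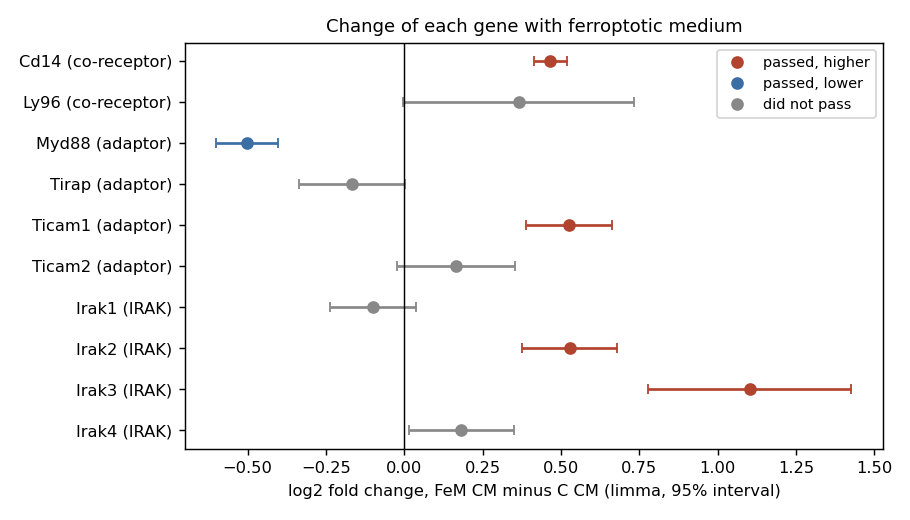
Log2 fold change of each gene, FeM CM minus C CM (horizontal axis, limma estimate with its 95% interval), ordered by role from co-receptors to IRAKs. Cd14, Ticam1, Irak2 and Irak3 lie to the right of 0 and passed (red), Myd88 lies to the left and passed (blue), and the 5 grey genes did not pass.

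Levels were compared between genes per kilobase of exon, with exon lengths from GENCODE M21. On this scale Cd14, at 67786 ± 1301 normalized counts per kilobase with FeM CM and 49062 ± 553 with C CM, ranked 27 of 15583 genes and stood far above the rest. Myd88 came next, at 1227 ± 24.9 with FeM CM and 1738 ± 61.8 with C CM, and Ticam1 followed at 845 ± 23.4 with FeM CM and 588 ± 38.6 with C CM. The order below them differed between the media. With FeM CM it ran Irak2 (639), Irak3 (580.4), Irak1 (466), Tirap (363), Ly96 (278), Irak4 (254) and Ticam2 (124), where Irak2 and Irak3 overlapped in range, as did Ly96 and Irak4. In C CM libraries it ran Irak1 (501), Irak2 (444), Tirap (409), Irak3 (271), Irak4 (223), Ly96 (217) and Ticam2 (111). There the ranges of Irak1 and Irak2, of Irak2 and Tirap, of Irak3 and Irak4, and of Irak4 and Ly96 overlapped. Irak3 thus lay above Irak1 and Tirap in all FeM CM libraries and below both in all C CM libraries. Ticam2 had the lowest level per kilobase in both groups.

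Differences between genes within a library cancel any single factor that scales the whole library, though not quantile normalization, and 6 pairs were compared in this way. These are log2 differences of normalized counts, not divided by length, so what bears on the media is their shift and not their sign. Ticam1 minus Myd88 was -0.34, -0.32 and -0.31 on the log2 scale in FeM CM libraries, against -1.51, -1.24 and -1.29 in C CM libraries. The gap between the adaptor genes was thus far narrower in every FeM CM library, by 1.03 on average, a 2.04-fold shift of the ratio. Irak3 minus Irak4 was 0.84, 0.94 and 0.44 with FeM CM and -0.40, -0.05 and -0.09 with C CM, a shift of 0.92 in favour of Irak3. Per kilobase, Irak3 lay above Irak4 in every library of both groups. Irak2 minus Irak1 was 0.40, 0.29 and 0.38 with FeM CM and -0.34, -0.04 and -0.43 with C CM, a shift of 0.63. Per kilobase, Irak2 lay above Irak1 in all FeM CM libraries and in C CM replicate 2, and below it in the other C CM libraries. Irak2 minus Irak3 was 0.34, 0.24 and 0.64 with FeM CM and 1.20, 1.02 and 0.74 with C CM, and Ticam2 minus Tirap differed by 0.33 between the media. In these 5 pairs the groups did not overlap, and each gave an exact two-sided permutation p of 0.1, the smallest that 3 against 3 libraries allow (0.12 adjusted over the 6 pairs). No pair could therefore reach 0.05 in this design.

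The makeup of each family, a description added after the values were seen, is the share of each gene in the summed level per kilobase. Myd88 made up 48.0%, 48.5% and 47.4% of the 4 adaptor genes in FeM CM libraries and 62.3%, 59.3% and 61.7% in C CM libraries. Ticam1 took the larger part of the difference, with 33.0% ± 0.384 with FeM CM and 20.7% ± 1.60 with C CM (SD, n = 3 each). Tirap had about the same share in both, with 14.2% with FeM CM and 14.4% with C CM and overlapping groups, and Ticam2 had 4.85% with FeM CM and 3.89% with C CM. Among the 4 IRAK genes, Irak3 made up 31.1%, 32.03% and 26.5% with FeM CM and 16.3%, 19.7% and 20.3% with C CM. The share of Irak1 was 24.1% with FeM CM and 34.8% with C CM, that of Irak4 was 13.1% with FeM CM and 15.5% with C CM, and that of Irak2, at 33.0% with FeM CM and 30.9% with C CM, overlapped between the groups. Summed over the 4 genes, IRAK transcripts numbered 8177 to 8857 normalized counts with FeM CM and 6255 to 6632 with C CM, while adaptor transcripts numbered 8017 to 8369 with FeM CM and 8727 to 9040.5 with C CM. Shares of a sum move together by construction, so a lower share of one gene is not a lower level of it.

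**Figure D3:**
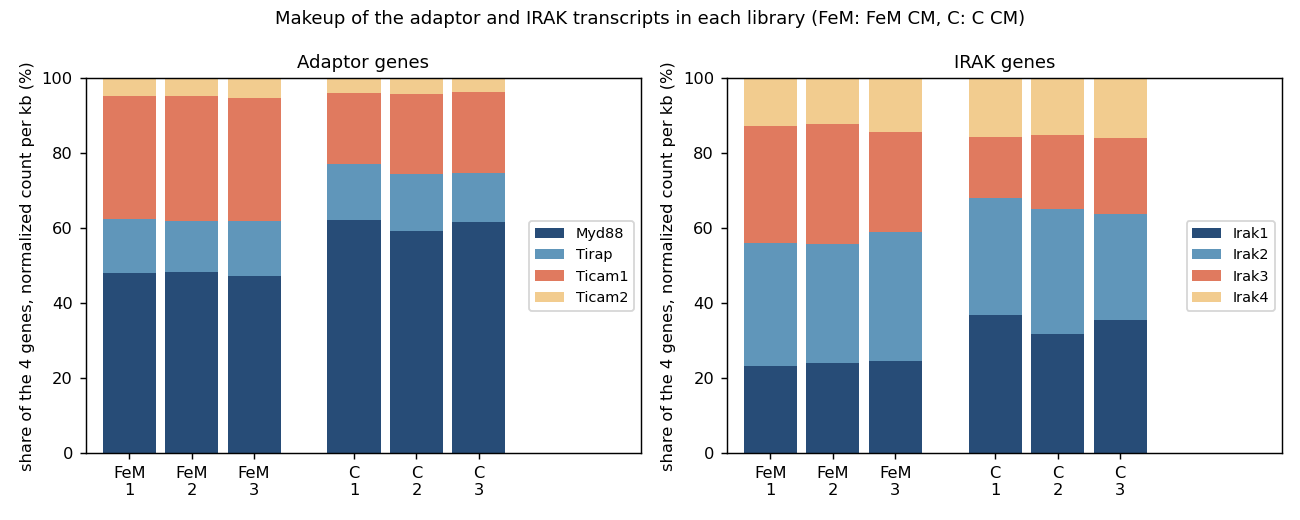
Share of each gene (percent of the summed normalized count per kilobase) among the 4 adaptor genes (left) and the 4 IRAK genes (right), in 1 bar per library, FeM CM libraries first. In all 3 FeM CM libraries the Ticam1 and Irak3 shares are larger, and the Myd88 and Irak1 shares smaller, than in any C CM library.

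The genes around these 10 in the pathway were counted by lists. Each count below, from the receptors to the target genes, is to be read beside the shares over all tested genes. Of those, 42.5% passed, 19.7% higher and 22.8% lower, and no list was tested as a set. Upstream, of 12 tested genes for TLRs and their chaperones, 1 was higher and 7 were lower, and the median log2 fold change was -0.28. The higher one was Tlr2, the receptor for bacterial lipopeptides, with 3743, 3599 and 3729 normalized counts with FeM CM and 2973, 2981 and 3006 with C CM (log2 fold change 0.30; limma adjusted p = 0.000288). Lower were the nucleic acid receptors Tlr3 (-1.57), Tlr7, Tlr8, Tlr9 (-0.64) and Tlr13, the chaperone Hsp90b1 and its cofactor Cnpy3 (-0.51). Tlr8 had a low level, 18.6 normalized counts with FeM CM and 35.3 with C CM on 167 reads in all. Its call was close to the threshold (limma adjusted p = 0.0484). Tlr3, whose one adaptor is TRIF, had 481, 328 and 330.0 normalized counts with FeM CM and 995, 1089.9 and 1277 with C CM, so that it was lower where Ticam1 was higher. Tlr7 had 839, 1239 and 1258 normalized counts with FeM CM and 6792, 6412 and 2163 with C CM, so that C CM replicate 3 stood far below the other C CM libraries (limma adjusted p = 0.0419). The count of lower genes was 4 without C CM replicate 1 or without C CM replicate 2. Tlr5, Tlr11 and Tlr12 were not analysed here.

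Among 6 other accessory genes of TLRs, 2 were higher and 4 lower. Cd36, a scavenger receptor that assists TLR2, was higher by 0.32 and the lectin gene Lgals3 was higher as well. Only 1 gene was higher without C CM replicate 1 or 2. The same count held with quantile normalization and with limma without its trend and robust options. Cd180, which encodes a TLR4-like protein without a signalling domain, had 1977, 1989 and 2201 normalized counts with FeM CM and 4578, 4424 and 4475 with C CM (log2 fold change -1.13; limma adjusted p = 5.85e-07). Its partner Ly86, which encodes MD-1, the relative of MD-2, was lower by a log2 fold change of -0.59 (limma adjusted p = 4.78e-05). The pair of Cd180 and Ly86 was thus lower in the libraries where Cd14 was higher. Hmgb1, a nuclear protein that acts on TLRs when released, and the lipoprotein receptor Scarb1 were lower too (-0.87 for Hmgb1). Of the receptors for interleukin-1 family cytokines, which also use MYD88 and the IRAKs, 3 of 6 were tested. Il18rap was lower (-0.17, limma adjusted p = 0.0205), and Il1rap (0.02) and Il1rl1 (-0.05) did not pass. Il18rap did not pass without C CM replicate 1 or 2. Nor did it pass with quantile normalization or with limma without its trend and robust options. Il1r1, the interleukin-1 receptor itself, had 13 reads over the 6 libraries, Il18r1 had 50 and Il1rl2 had 3, too few to test.

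Downstream of the IRAKs, of 15 tested kinases and ubiquitin enzymes, 1 was higher and 5 were lower, with a median of -0.07. Tab2, an adaptor of the kinase TAK1, had 3356, 3413 and 3660.4 normalized counts with FeM CM and 6063, 6225 and 6140.0 with C CM (log2 fold change -0.82; limma adjusted p = 1.24e-06). Its partner Tab1 was lower by a log2 fold change of -0.55, and Rbck1, of the linear ubiquitin ligase, by -0.36. Peli1, a ubiquitin ligase that acts with the IRAKs, was at -0.27 (limma adjusted p = 0.0028), and the kinase gene Map3k8 was also lower. Chuk, which encodes the kinase IKK-alpha, was the higher one. Peli3 had 11 reads and was not tested.

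On the TRIF side, 4 of 10 genes were higher and 3 lower, with a median of 0.03. Ikbke, a kinase that acts beside TBK1 on IRF3, had 4686, 4529 and 4688 normalized counts with FeM CM and 2623, 2885 and 2917 with C CM (log2 fold change 0.72; limma adjusted p = 6.99e-06). Tank (0.51) and Tbkbp1, which encode scaffolds of these kinases, and Ripk3 (0.46), the necroptosis kinase that can bind TRIF, were higher too. Irf7, an interferon-inducible transcription factor, was lower (-0.54; limma adjusted p = 7.04e-06), as were Azi2 and Ripk1.

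Among 18 genes known as brakes on the pathway, 8 were higher and 5 lower, with a median of 0.18. The higher ones included Tnip1 (0.61), a partner of the ubiquitin editor A20, Nlrx1 (0.62), a mitochondrial regulator, and Inpp5d (0.38), the lipid phosphatase SHIP1, each smaller than the change of Irak3. Lower ones were Usp18 (-0.86), which removes ISG15 and restrains interferon signalling, Sigirr, Cyld, Trafd1 and Tmed1. The count of lower genes was 3 without C CM replicate 1. Some genes of these lists, among them Nlrx1 (11.9% of its exon bases), Tmed1 (13.6%) and Tlr3 (7.32%), also share exon bases with a gene on the opposite strand.

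The target genes of the pathway's branches moved apart. Of 10 tested genes listed here as targets of MYD88 signalling in macrophages, 10 were higher and the median log2 fold change was 2.61. Their need for MYD88 in these cells was not tested. The smallest p-values were those of the chemokine Cxcl2 (4.47), the prostaglandin synthase Ptgs2 (4.20), the chemokine Ccl3 (1.61) and the cytokine Il1b (3.30). Of the 12 genes on this list, Cxcl1 had 3 reads and was not tested, and Il12b was not analysed here. Of 10 target genes of the TRIF and IRF3 branch, 9 were lower and 1, the chemokine gene Ccl5 (0.19; limma adjusted p = 0.055), did not pass, with a median of -1.68. Ifnb1, the interferon-beta gene, was close to the threshold (limma adjusted p = 0.0490). It averaged 5.71 normalized counts with FeM CM and 17.6 with C CM, on 74 reads in all. The count of lower genes was 8 when any 1 FeM CM library or C CM replicate 1 was left out. It was also 8 with the replicate block and with no low-count minimum. With quantile normalization, and also without FeM CM replicate 2, 1 gene of this list passed as higher. The interferon-induced Ifit2, Ifit3 (-2.57), Cmpk2 (-1.86) and Rsad2 (-1.49) had the smallest p-values, and Ifit3 has a near-identical copy with which it may share reads. The adaptor genes themselves thus stood in the opposite order to these lists, with Myd88 lower and Ticam1 higher. Both lists were drawn up with earlier results of these samples known and are no independent evidence of direction. Many of these target genes also answer to signals other than TLRs.

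**Figure D4:**
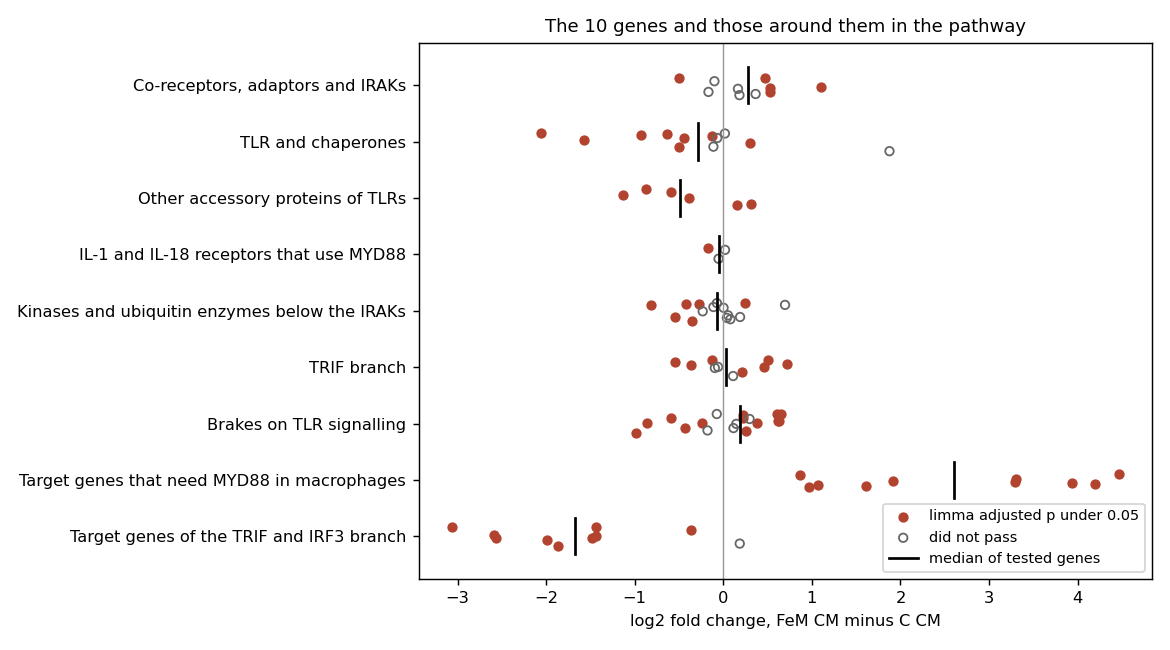
Log2 fold change, FeM CM minus C CM (horizontal axis), of each tested gene in the 10 described here (top) and in the lists of genes around them. Filled points had a limma adjusted p under 0.05, open points did not, and black bars are medians, which run from -1.68 for the TRIF and IRF3 targets to 2.61 for the MYD88 targets beside 0.27 for the 10 genes.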

How the data were processed

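RNA of 6 microglia samples was sequenced on an Illumina NovaSeq 6000 after mRNA library preparation, per the labels' protocols. Per the submitters' processing notes, the tools were HISAT2 2.1.0, fastp 0.17.1, R 3.4.3 and DESeq2 1.18.1. Their genome build, annotation and use of strand in counting were not given in the sources used here. Per gene and library, the authors deposited 1 log2 value, which is log2 of a count divided by a size factor, plus 1. After the log was undone, 100% of values were whole multiples of 1 read within 0.01, and these whole reads give the depths. They may be rounded estimates. The authors also deposited p-values, false discovery rates and log2 fold changes per gene, and FPKM values for their changed genes, which were used only as descriptions.

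Genes that reached 10 normalized counts in 3 or more libraries were tested two-sided with limma 3.58.1, using its trend and robust options, in R 4.3.3, with medium as the one term. Benjamini-Hochberg adjustment ran over all 15597 genes, and SE is limma's moderated standard error. Pairs of genes were compared by exact permutation with SciPy 1.17.1. The limma fit was also run on simulated counts. These gave all genes the same spread beyond sampling noise, unlike these data, so the outcome need not hold here. Exon lengths, positions and overlaps come from GENCODE M21 (GRCm38), which holds 99.83% of the gene IDs, and promoter windows from RefSeq. Replicate pairs differed by more than sampling noise (chi-square per degree of freedom 16.3 to 22.8). The genes and lists were chosen with earlier results of these data known. Named genes are the 10, genes that overlap their exons, and in each list up to 4 genes with the smallest p-values and those not tested. Others named in a list, and Tlr4, were named after their values were seen. Alternatives changed the low-count minimum, the scaling, the pseudocount, the test and the replicate block, or left out 1 library. One marker gene is not reported here.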

Additional observations from a re-analysis of the deposited data

How the results depend on the processing

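Cd14, Ticam1, Irak2, Irak3 and Myd88 passed with an unchanged direction under all 14 alternatives, and none of the 10 genes changed sign. Across them the log2 fold change ran from 0.98 to 1.21 for Irak3, from 0.29 to 0.48 for Cd14 and from -0.53 to -0.44 for Myd88. Irak4 also passed with quantile normalization (0.24). Leaving out 1 library gave 4 to 5 of the 10 genes higher and 1 to 2 lower, the second lower gene being Tirap without C CM replicate 3, and 2668 to 2848 of all genes higher and 3030 to 3371 lower. The log2 difference of Cd14 minus Ly96, 0.10 between the media, was -0.053 with quantile normalization and ran from -0.024 (without C CM replicate 1) to 0.25 when 1 library was left out. The cause was not tested. Same-numbered libraries did not deviate together (r = 0.01, -0.02 and -0.04), so the values gave no sign of pairing. A low correlation cannot show whether same-numbered samples were prepared together. With the replicate number as a block, 2914 genes were higher and 3312 lower, with 4 and 1 of the 10, and the paired test of each pair of genes other than Cd14 and Ly96 gave an exact permutation p of 0.25, the smallest that 3 pairs allow. Under the block 3 brake genes were lower. The Irak3 share differed by 11.1 percentage points, and by 9.86 when not divided by length. With 3 libraries a group, Ly96, at 1506 reads in all, allowed only a wide interval.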
